A study of Mus musculus with 50 samples.

Results

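Rbfox1, Rbfox2, Mbnl1, Mbnl2, Mbnl3, Celf1 and Celf2 are the RBFOX, muscleblind and CELF genes through which vertebrate muscle sets much of its alternative splicing. They were taken by gene symbol and make up 7 of the 23880 genes in the deposited tables. All 7 were present, and 6 passed the filter on low counts, a level of 1 CPM (counts scaled to library size) reached by 8 or more mice. Mbnl3 did not.

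RBFOX proteins bind the RNA hexamer UGCAUG and promote or block inclusion of an exon according to whether they bind after or before it. Muscleblind (MBNL) proteins bind YGCY motifs and drive the change from fetal to adult splicing in muscle. In myotonic dystrophy they are trapped on expanded CUG or CCUG repeats while CELF1, which acts against MBNL on many of the same exons and favours the fetal forms, becomes more abundant. CELF2 is the paralog of CELF1.

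Gene-level mRNA abundance was measured in gastrocnemius, a mixed but mainly fast hindlimb muscle, of male wild-type C57BL/6JRj mice, an inbred strain, at 8, 18, 22 and 24 months of age (8 mice each) and at 26 and 28 months (9 mice each). Each of the 50 libraries came from 1 mouse, all animals were singly caged, and all ate the purified AIN93M diet. The study's methods state that the mice aged 22 months or more had been on this diet since middle age, whereas for those aged 8 and 18 months the methods give a minimum period on it before measurement, so that age and feeding history cannot be told apart between 8 months and any age from 22 months on. Mice aged 22 and 28 months began the diet at a like age, and in that contrast time on the diet goes with age. The methods also state that mice with overt illness were left out, which limits the oldest group to mice without it.

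The libraries held 13607229 to 21267375 estimated counts. Markers of skeletal muscle fibres were high at every age, with a summed level of 92300 to 118000 TPM (transcripts scaled to length and library size) at 8 months and 76500 to 132000 TPM at 28 months. The libraries differed in how well long transcripts were represented. The median log2 deviation of genes with a longest annotated transcript of at least 6322 bases, minus that of genes of at most 1254 bases, ran from -0.86 to 0.47 between the mice aged 8 months and from 0.01 to 0.58 between those aged 28 months. Replicate 3 of 8 months had the lowest value of its age and replicate 8 the highest, and replicate 2 of 28 months had the highest of its own age. These values accompany several results here. Their part in them was addressed only by the length offset described with those results, which levels classes of transcript length and not single genes.

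Several members are themselves alternatively spliced, and some of the exons concerned are shown because a gene-level count cannot follow them. In the GRCm38 annotation Mbnl1 (chr3:60472830-60629750, plus strand) and Mbnl2 (chr14:120275669-120431697, plus strand) each have a coding cassette exon of 36 bases. Both carry the RBFOX hexamer on the sense strand, written TGCATG in DNA and set in capitals, beginning at base 12 of the exon.
Mbnl1 exon, chr3:60621423-60621458: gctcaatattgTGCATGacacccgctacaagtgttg
Mbnl2 exon, chr14:120403336-120403371: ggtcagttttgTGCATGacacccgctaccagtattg
The paralogous exons matched at 31 of 36 bases (86.1%). Among 372 internal coding exons of this length in the annotation, 4 held TGCATG on the sense strand (1.08%). Another cassette exon of Mbnl1, of 54 bases, is known to carry part of the nuclear localisation signal and to be repressed by MBNL1 itself. It held no TGCATG.
Mbnl1 exon, chr3:60614683-60614736: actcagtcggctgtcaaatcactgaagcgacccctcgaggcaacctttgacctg
Rbfox2 (chr15:77078990-77307004, minus strand) has a cassette exon of 40 bases whose inclusion shifts the reading frame, also without the hexamer.
Rbfox2 exon, chr15:77094451-77094490: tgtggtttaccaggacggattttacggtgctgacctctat
The other members lie at chr16:5885355-7411526 (Rbfox1, plus strand), chrX:51117269-51206532 (Mbnl3, minus strand), chr2:90940382-91019497 (Celf1, plus strand) and chr2:6539694-7509563 (Celf2, minus strand). Coding cassette exons of 111 and 95 bases in Mbnl1 and of 144 bases in Celf2 are not shown and held no TGCATG. How often any of these cassette exons was included at each age was not measured by the values used here.

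The order of abundance at 8 months, per transcript length in TPM, was Mbnl1, Rbfox1, Mbnl2, Celf1, Celf2, Rbfox2 and Mbnl3. Mean levels were 222 ± 39.4 (SD, n = 8) for Mbnl1, 100 ± 15.6 for Rbfox1, 71.5 ± 16.8 for Mbnl2, 34.4 ± 6.61 for Celf1, 29.2 ± 8.45 for Celf2 and 20.8 ± 3.85 for Rbfox2. Mbnl1 lay above Rbfox1 and Mbnl2 above Celf1 without overlap between mice. The ranges of Celf1 and Celf2 overlapped, and Celf1 was the higher of the pair in 6 of 8 mice. At 28 months the order was the same but for this pair, with Celf2 above Celf1 in 8 of 9 mice. The 3 MBNL genes together held 61.3% ± 2.12 of the summed TPM of the 7 genes at 8 months and 60.1% ± 2.33 at 28 months (n = 9).

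**Figure D1:**
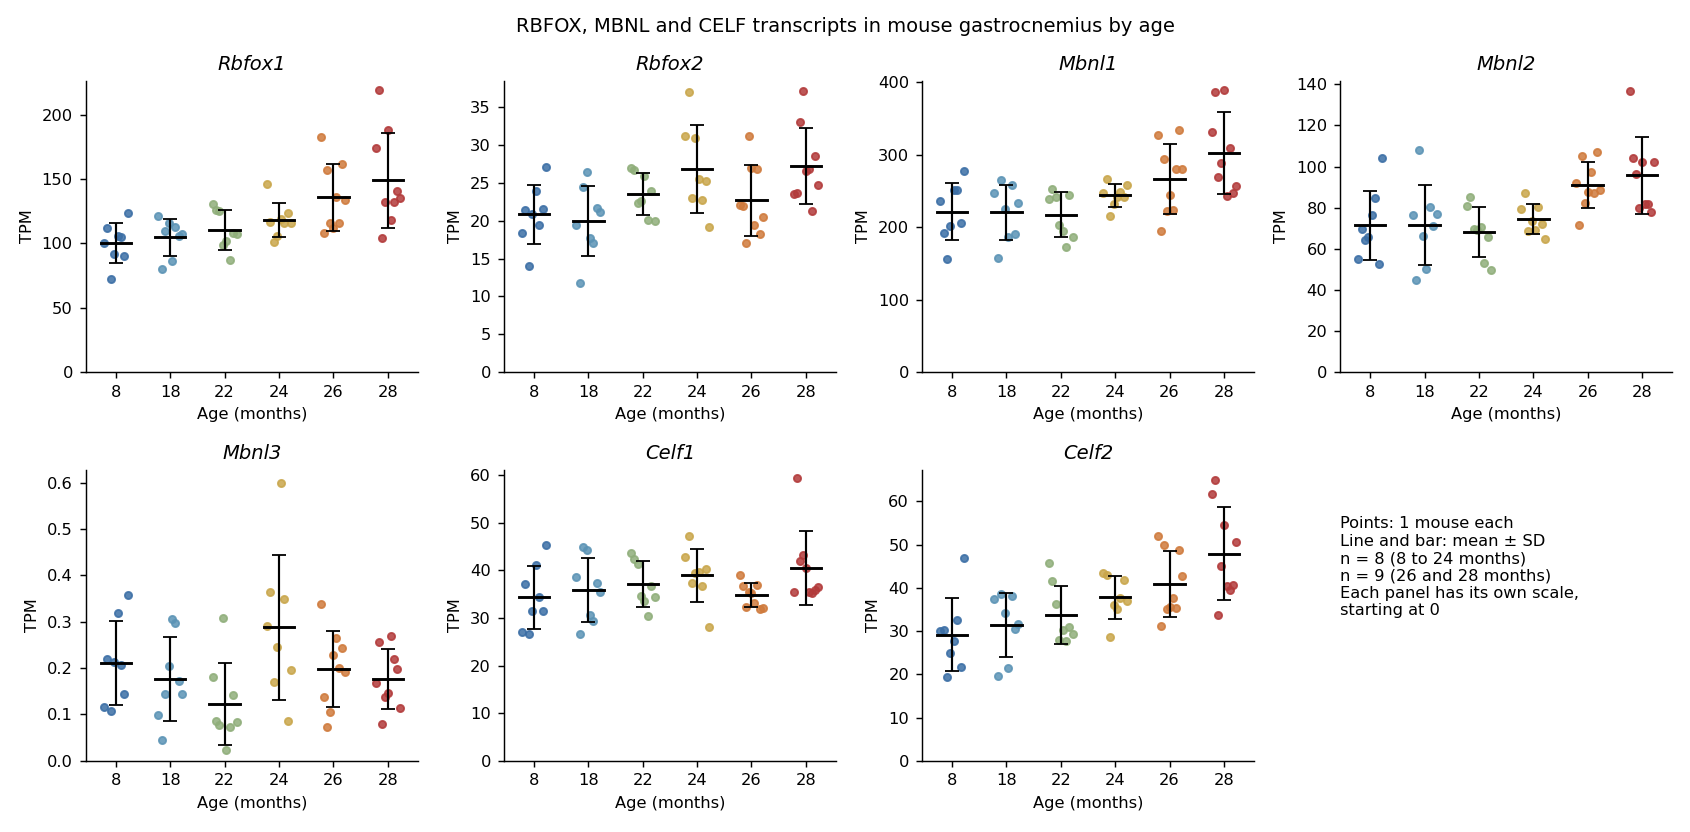
TPM (vertical axes, each from 0) of the 7 genes by age in months, with 1 point per mouse and the mean ± SD. Rbfox1 and Celf2 have their highest means at 28 months (149 and 47.9 TPM), Celf1 ranges from 26.7 to 45.4 TPM at 8 months and from 35.2 to 59.5 TPM at 28 months, and Mbnl3 stays below 0.6 TPM.

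Rbfox1 and Celf2 had the largest increases between 8 and 28 months. The change was 0.50 ± 0.11 (log2 fold change ± SE) for Rbfox1 and 0.60 ± 0.12 for Celf2. Mbnl1 and Mbnl2 were also higher, by 0.35 ± 0.10 and 0.37 ± 0.11. In edgeR's quasi-likelihood test with Benjamini-Hochberg adjustment over 12586 genes, these 4 of the 6 tested members were higher at FDR < 0.01 and none was lower. In the same comparison 39.6% of all tested genes were called and 21% were called higher, and the median log2 fold change was 0.36 over the 6 members and 0.01 over all genes. Mbnl1 (FDR = 0.0115) and Mbnl2 (FDR = 0.0228) missed the threshold when only these 2 ages were fitted, and Mbnl2 also with upper-quartile scaling (FDR = 0.0101). In whole muscle, a change in the number of cells of a type and a change in RNA per cell cannot be told apart.

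Rbfox1, the main RBFOX gene of adult muscle fibres, ranged from 72.4 to 124 TPM at 8 months, with a median of 103. At 28 months it ranged from 104 to 219 TPM, with a median of 135. All 9 oldest mice exceeded the 8-month median in TPM. The highest 8-month mouse was exceeded by 7 of 9 in TPM and by 8 of 9 in CPM, the scale of edgeR's test. In edgeR the difference was 1.42-fold (FDR = 0.000135). The coefficient of variation between mice was 15.6% at 8 months, 11.3% at 24 months and 24.7% at 28 months. Replicates 2, 5 and 1 of 28 months held the 3 highest values (219, 188 and 174 TPM). They were also the 3 highest of their age in the long-transcript measure given above (0.584, 0.484 and 0.489). Replicates 3 and 6, lowest in Rbfox1 (104 and 118 TPM), were lowest in that measure (0.014 and 0.01). The part of this measure in the spread of Rbfox1 was not tested.

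Rbfox2, the more widely expressed paralog, ranged from 14.0 to 27.1 TPM (median 21.2) at 8 months and from 21.3 to 37.2 TPM (median 26.6) at 28 months. All 9 oldest mice exceeded the 8-month median in TPM. The highest 8-month mouse was exceeded by 3 of 9 in TPM and by 7 of 9 in CPM. The log2 fold change of 0.32 ± 0.11 missed the threshold (FDR = 0.0147). It passed without replicate 2 of 28 months (FDR = 0.00665) or without replicate 7 (FDR = 0.00874). The mice that were high in Rbfox2 at 28 months, replicates 4 and 3 with 37.2 and 33.0 TPM, were not those high in Rbfox1.

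Mbnl1, the most abundant muscleblind gene, ranged from 156 to 278 TPM (median 221) at 8 months and from 243 to 390 TPM (median 288) at 28 months. All 9 oldest mice lay above the 8-month median in TPM. Above the highest 8-month value were 5 of 9 in TPM and 4 of 9 in CPM (edgeR FDR = 0.00276). Without replicate 5 of 28 months the change was 0.30 and just missed the threshold (FDR = 0.0103).

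Mbnl2, which can stand in for MBNL1 on many exons, ranged from 52.6 to 104 TPM (median 67.6) at 8 months and from 78.1 to 137 TPM (median 96.5) at 28 months. All 9 oldest mice were above the 8-month median in TPM. Above the highest 8-month mouse were 1 of 9 in TPM and 4 of 9 in CPM (edgeR FDR = 0.00395). The call was lost without replicate 1 of 28 months (change 0.28, FDR = 0.0213), without replicate 1 of 8 months (FDR = 0.012) or without replicate 7 of 8 months (FDR = 0.0137).

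Mbnl3, the member linked to muscle precursor cells, was close to the limit of detection. It had 1 to 15 estimated counts per mouse and 0.0243 to 0.599 TPM over the 50 mice. Mean levels were 0.21 ± 0.0906 TPM at 8 months and 0.176 ± 0.0644 TPM at 28 months, with overlapping ranges. Having missed the filter, it did not enter the edgeR fit.

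Celf1, the CELF protein that becomes more abundant in myotonic dystrophy, ranged from 26.7 to 45.4 TPM (median 33.0) at 8 months and from 35.2 to 59.5 TPM (median 36.6) at 28 months. Its log2 fold change was 0.11 ± 0.08 (FDR = 0.253, 95% interval -0.05 to 0.28). All 9 oldest mice lay above the 8-month median in TPM, and 1 of them, replicate 2 at 59.5 TPM, lay above the highest 8-month mouse. In CPM 3 of 9 lay above it. The change was 0.07 without replicate 2 of 28 months (FDR = 0.495) and 0.24 in limma on log2(TPM + 0.1), which did not pass either.

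Celf2 ranged from 19.3 to 46.8 TPM (median 28.9) at 8 months and from 33.6 to 65.0 TPM (median 45.1) at 28 months. In edgeR the difference was 1.51-fold (FDR = 8.38e-05). All 9 oldest mice were above the 8-month median in TPM, and 5 of 9 in CPM and 4 of 9 in TPM were above the highest 8-month mouse. That mouse, replicate 8, was also the highest of its age in TPM for the 6 other members. At 28 months replicates 2, 1, 5 and 9 were highest in Celf2 (65.0, 61.6, 54.5 and 50.6 TPM). The same mice were highest of that age in the long-transcript measure (0.584, 0.489, 0.484 and 0.461), whose part was not tested mouse by mouse. The change remained past the threshold whichever of the 17 mice was left out, as did that of Rbfox1.

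Apart from Rbfox1, the tested members have long transcripts, and gene length went with the direction of change across the whole table. Of 3091 tested genes whose longest annotated transcript was under 2000 bases, 9.71% were higher and 30.9% lower at 28 months. Of 1375 genes of 6000 bases or more, 35.9% were higher and 6.76% lower. The longest annotated transcripts measured 3061 bases for Rbfox1, 4552 for Mbnl2, 5655 for Mbnl1, 6907 for Rbfox2, 7851 for Celf1 and 8738 for Celf2.

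**Figure D2:**
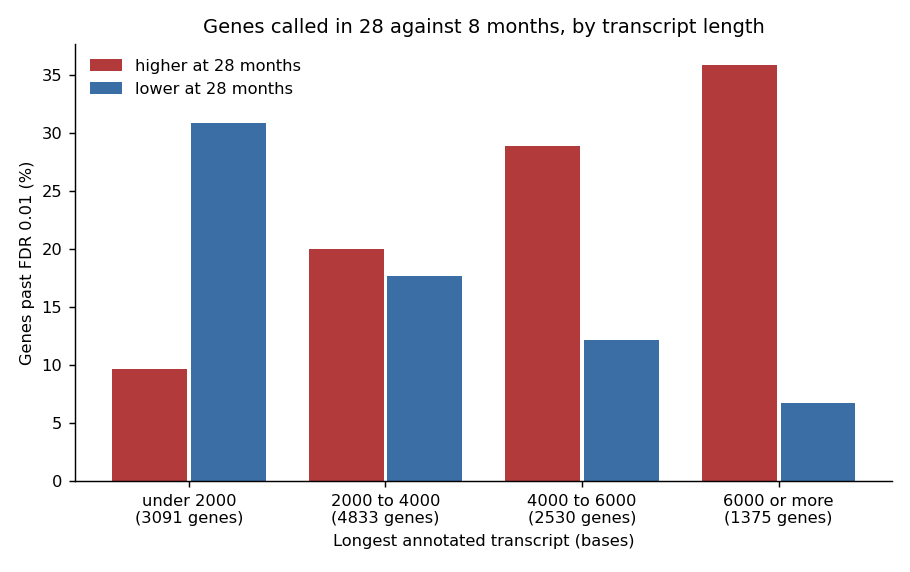
Share of tested genes (%, vertical axis) higher or lower at 28 than at 8 months at FDR < 0.01, by longest annotated transcript in bases. The share higher goes from 9.71% in the shortest class to 35.9% in the longest, while the share lower goes from 30.9% to 6.76%.

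A per-mouse offset that levels the median deviation within 10 classes of transcript length was therefore added to the edgeR fit, an alternative chosen after seeing the data. It takes away any shift that genes of like length share, whether technical or not. Rbfox1 hardly moved (0.49 ± 0.11, FDR = 0.000163). Genes of 2000 to 4000 bases, its length range, had a median log2 fold change of -0.001 in this contrast. The offset could therefore take little from its change, and does not test whether Rbfox1 itself followed the length trend between libraries. Celf2 stayed past the threshold with a smaller change (0.35 ± 0.10, FDR = 0.00307). Mbnl1 (0.22 ± 0.10, FDR = 0.0673) and Mbnl2 (0.27 ± 0.10, FDR = 0.0153) no longer passed. With this offset 39.2% of 11829 genes were called and 21.1% were called higher. Rbfox2 stood at 0.08 ± 0.10, and Celf1 turned to -0.13 ± 0.08 (FDR = 0.183).

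**Figure D3:**
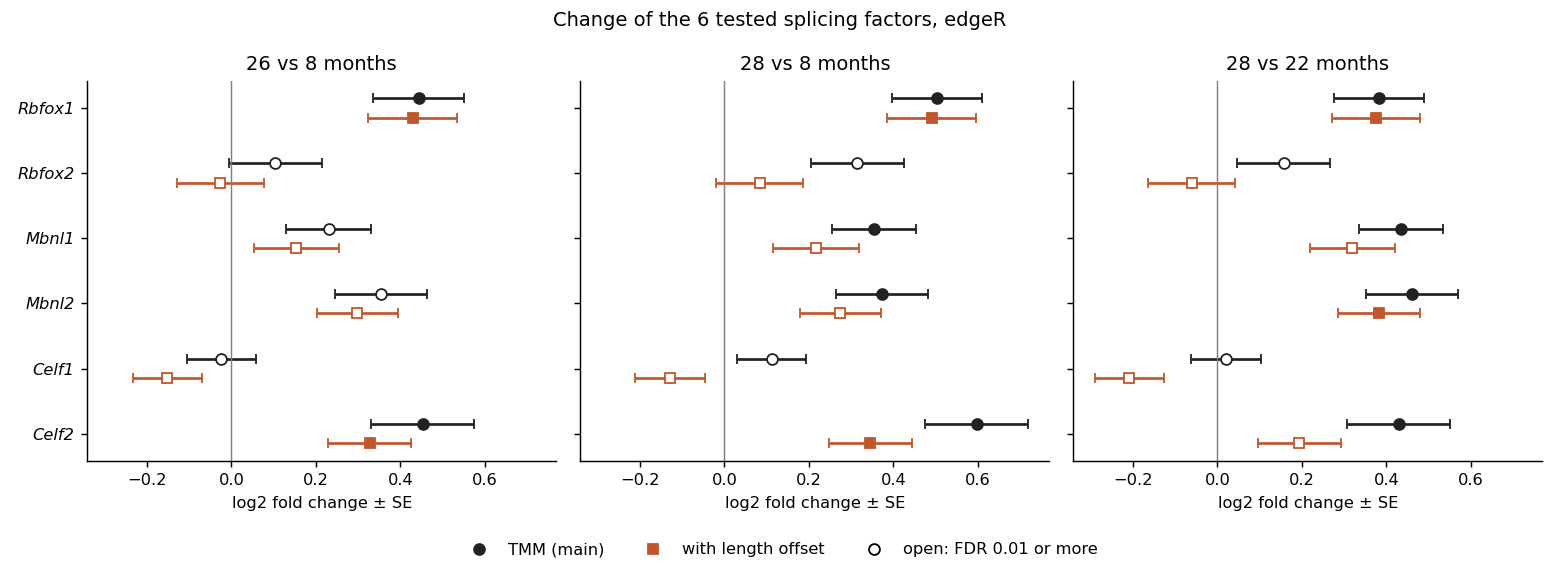
Log2 fold change ± SE (horizontal axes) of the 6 tested genes in 3 contrasts, with TMM scaling (circles) and with the length offset added (squares), filled where FDR < 0.01. Rbfox1 is past the threshold in all 3 contrasts under both, whereas Mbnl1 is past it only with TMM scaling alone.

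Rbfox1 and Celf2 had already passed the threshold at 26 months. Rbfox1 was 0.44 ± 0.11 above 8 months (FDR = 0.00167) and Celf2 0.45 ± 0.12 (FDR = 0.00413), and both were also called with the length offset (0.43, FDR = 0.00179, and 0.33, FDR = 0.00881), under which 19.9% of all genes were called, 10.3% higher and 9.65% lower. They were the 2 of 6 members higher at this age, where 18.4% of all genes were called and 9.84% were called higher. Mbnl2 missed narrowly (0.35 ± 0.11, FDR = 0.0111), and passed in DESeq2 (FDR = 0.00782). Mbnl1 was at 0.23 ± 0.10 (FDR = 0.067). Celf1 was at -0.02 ± 0.08 and Rbfox2 at 0.10 ± 0.11.

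Before 26 months no member was called. Against 8 months, edgeR called 0 of 6 members at 18 months (0.0715% of all genes called), at 22 months (0.0397%) and at 24 months (0.612%), and DESeq2 also called 0 at each. At an unadjusted p under 0.05 the numbers of members were 0, 0 and 3, the 3 at 24 months being Rbfox2 (0.32 ± 0.11, FDR = 0.114), Celf2 (0.32 ± 0.12, FDR = 0.151) and Rbfox1 (0.23 ± 0.11, FDR = 0.244). Mbnl1 and Mbnl2 were at -0.08 ± 0.10 and -0.09 ± 0.11 at 22 months, neither past the threshold. These contrasts share the 8-month mice.

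Between neighbouring ages no member passed in edgeR or DESeq2. The share of all genes called was 0.00795% for 22 against 18 months and 0% for 24 against 22, 26 against 24 and 28 against 26 months. At an unadjusted p under 0.05 edgeR gave 1, 0, 2 and 0 members in these 4 contrasts, and 522, 478, 2202 and 1609 of all genes. The largest step of a member was that of Mbnl2 from 24 to 26 months (0.30 ± 0.11, FDR = 0.133).

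Between 28 and 22 months, ages that began the diet alike, both abundant muscleblind genes were higher. Mbnl2 rose by 0.46 ± 0.11 (FDR = 0.000929) and Mbnl1 by 0.44 ± 0.10 (FDR = 0.000663), and both calls held whichever of 17 mice was left out. At 22 months Mbnl2 ranged from 49.6 to 85.1 TPM (median 69.4) and 5 of 9 oldest mice lay above that range. Mbnl1 ranged from 173 to 253 TPM (median 221) and 7 of 9 oldest mice lay above it.

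Rbfox1 (0.38 ± 0.11, FDR = 0.00388) and Celf2 (0.43 ± 0.12, FDR = 0.0044) were higher too, so that 4 of 6 members were called, where 27.7% of all genes were called and 16.2% were called higher. Of all called genes 58.3% were higher, against 43.4% with upper-quartile scaling, under which Celf2 just missed (FDR = 0.0105). With only these 2 ages in the fit neither Rbfox1 (FDR = 0.0189) nor Celf2 (FDR = 0.0184) passed. Rbfox1 ranged from 87.0 to 131 TPM (median 107) at 22 months and 7 of 9 oldest mice exceeded this range. Celf2 ranged from 27.7 to 45.8 TPM (median 30.6) and 4 of 9 exceeded it. The call of Rbfox1 held in 11 of 17 fits that left out a mouse and was lost without replicates 4, 5 or 6 of 22 months or replicates 1, 2 or 5 of 28 months (highest FDR = 0.0145). That of Celf2 held in 10 of 17 and was lost without replicates 4, 5, 6 or 7 of 22 months or replicates 1, 2 or 5 of 28 months (highest FDR = 0.0158). With the length offset Rbfox1 (0.37, FDR = 0.00418) and Mbnl2 (0.38, FDR = 0.00164) were called, while Mbnl1 (0.32, FDR = 0.0107) and Celf2 (0.19, FDR = 0.104) were not, where 26.1% of all genes were called and 15.3% were called higher. Rbfox2 (0.16 ± 0.11, FDR = 0.247) and Celf1 (0.02 ± 0.08, FDR = 0.859) did not pass, and with the offset they were at -0.06 and -0.21 (FDR = 0.0356 for Celf1).

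The balance between paralogs was compared as the per-mouse ratio of TPM, a measure free of library scaling, in 10 exact two-sided permutation tests with Benjamini-Hochberg adjustment. Celf2 gained on Celf1. The ratio Celf2/Celf1 ranged from 0.673 to 1.11 (median 0.803) at 8 months, from 0.806 to 1.05 (median 0.89) at 22 months and from 0.8 to 1.74 (median 1.14) at 28 months. It was above 1 in 2 of 8 mice at 8 months, 1 of 8 at 22 months and 8 of 9 at 28 months. The geometric mean of the ratio at 28 months was 1.41 times that at 8 months (exact permutation p = 0.00346, adjusted p = 0.0181) and 1.31 times that at 22 months (exact permutation p = 0.00362, adjusted p = 0.0181). Both contrasts use the same 28-month mice. The longest annotated Celf2 transcript is longer than that of Celf1. The transcripts to which reads were assigned averaged fewer bases for Celf2 than for Celf1 (4473 against 5605 at 8 months). The part of transcript length in this ratio was not tested.

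Rbfox1/Rbfox2 averaged 4.86 ± 0.506 at 8 months and 5.71 ± 1.97 at 28 months, with Rbfox1 the higher in every mouse. The means of the log2 ratio differed by 0.162, which was not significant (exact permutation p = 0.403, adjusted p = 0.672). The spread was wider in the older group, from 3.15 to 9.23, and 5 of 9 oldest mice lay above the highest 8-month ratio. Mbnl2/Mbnl1 was 0.325 ± 0.0601 at 8 months and 0.321 ± 0.0586 at 28 months (exact permutation p = 0.905, adjusted p = 0.905). Mbnl3 stood at 0.000931 ± 0.000297 of Mbnl1 at 8 months and 0.000597 ± 0.000252 at 28 months (exact permutation p = 0.0238, adjusted p = 0.0793), a ratio that rests on at most 15 counts of Mbnl3 per mouse.

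**Figure D4:**
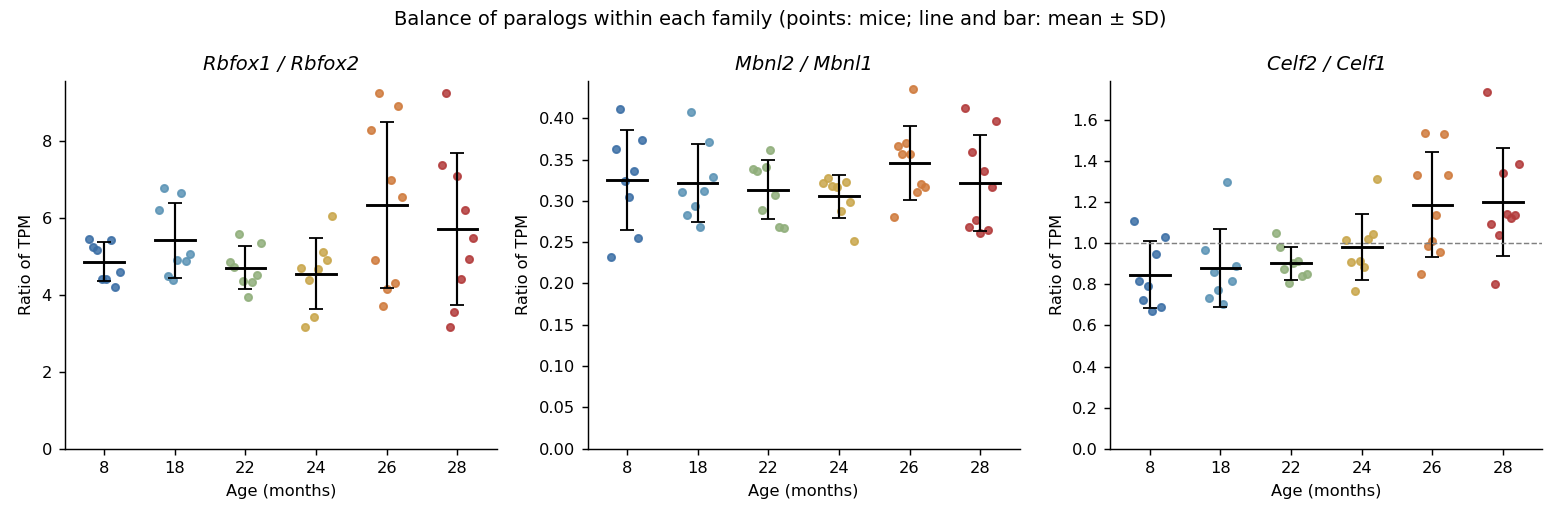
Ratio of TPM (vertical axes, from 0) between paralogs by age in months, with 1 point per mouse and the mean ± SD, and a dashed line at 1 for Celf2/Celf1. Celf2/Celf1 exceeds 1 in 2 of 8 mice at 8 months and 8 of 9 at 28 months, while Mbnl2/Mbnl1 averages 0.325 and 0.321 at these ages.

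Because counts are summed over transcripts and TPM divides each transcript by its length, their ratio follows the mean length of the transcripts to which a gene's reads were assigned. This gives at most an indirect view of isoform mix. By the study's methods a read that matched several transcripts was divided equally among them. The ratio therefore also depends on where along a gene the reads fall, and a shift in it cannot be told apart from a change of coverage. Rbfox1, with 1 transcript in the reference, stood at 3061 bases in every mouse and could not move. Mbnl2, with 2 transcripts of 4534 and 4552 bases, had little room to move and stayed at 4543 in every mouse. Celf1 had a mean length of 5605 ± 146 bases at 8 months (n = 8) and 5382 ± 183 at 28 months (n = 9). Celf2 had 4473 ± 349 and 4252 ± 107 bases, Mbnl1 3602 ± 287 and 3511 ± 80.5, and Rbfox2 5242 ± 171 and 5154 ± 41.1.

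No member's length index passed FDR < 0.01 in limma, where 1.43% of 8744 genes did between 28 and 8 months and 0.0343% between 28 and 22 months. The smallest values in limma were those of Celf1 (-0.05 ± 0.02 log2, FDR = 0.106) and Celf2 (-0.06 ± 0.03, FDR = 0.133), the 2 members with an unadjusted p under 0.05 in this contrast with 8 months. The 8-month mouse that stood lowest in long transcripts, replicate 3, had the longest mean length of its age for Celf2 (5240 bases), Mbnl1 (4178) and Rbfox2 (5626). Without it the shift against 8 months of Celf2 was -0.03 and that of Rbfox2 -0.01.

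**Figure D5:**
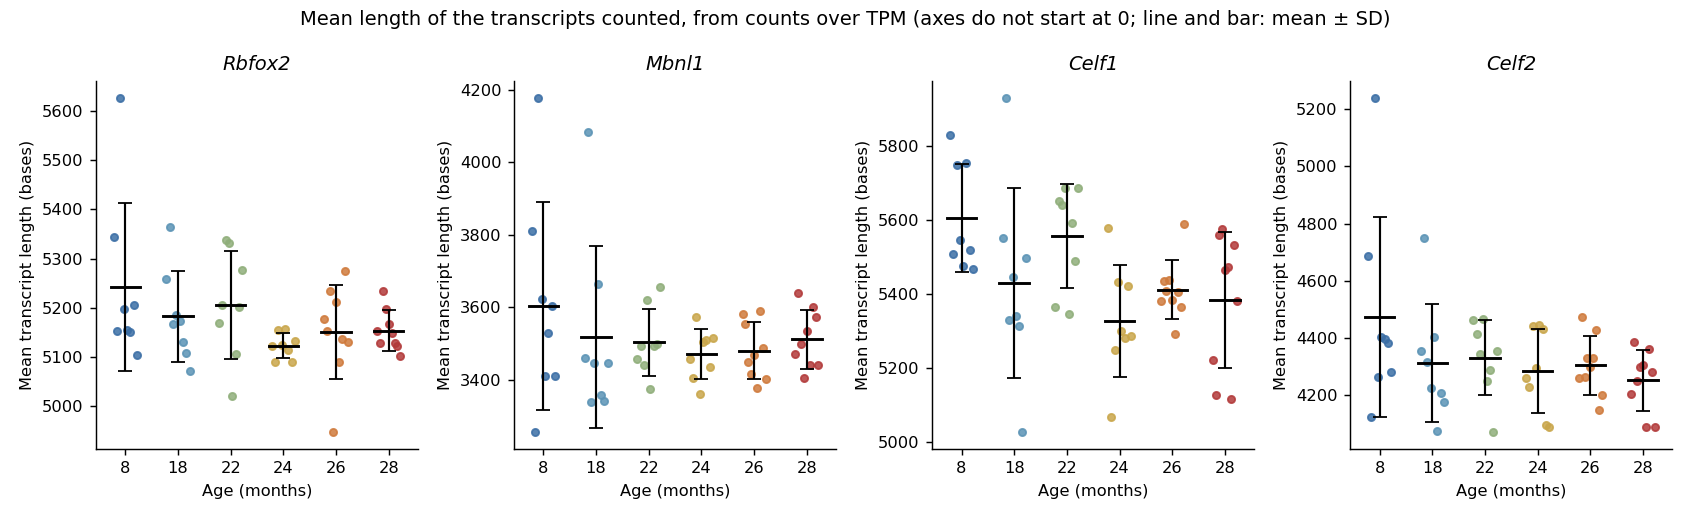
Mean transcript length in bases (vertical axes, not from 0) of the 4 members whose index moved between mice, by age in months, with 1 point per mouse and the mean ± SD. At 8 months a single mouse lies above the others for Celf2 (5240 bases), Mbnl1 (4178) and Rbfox2 (5626).

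The proteins with which RBFOX works in its nuclear complex, the large assembly of splicing regulators, were represented by 8 genes, of which 6 were higher at 28 than at 8 months and none lower (median log2 fold change 0.29, against 0.01 over all genes), where 21% of all genes were higher and 18.7% lower. The largest increases were in Ddx5, an RNA helicase (0.47 ± 0.09, FDR = 6.40e-05), Matr3, a nuclear matrix RNA-binding protein (0.39 ± 0.08, FDR = 0.000143), and Ilf2, a subunit of a double-stranded RNA-binding complex (0.38 ± 0.08, FDR = 0.00014). Hnrnph1 (-0.18 ± 0.08, FDR = 0.0714) and Hnrnpc (-0.08 ± 0.06, FDR = 0.316) did not pass. Between 28 and 22 months 5 of the 8 were higher and none lower. Of all genes 16.2% were higher in that contrast. With the length offset 3 of 8 were higher at 28 than at 8 months (median 0.21), against 21.1% of all genes, with Ddx5 and Ilf2 among them, while Matr3 was at 0.26 ± 0.09 (FDR = 0.0142).

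Other members of the families were nearly silent. Rbfox3, Celf3, Celf4, Celf5 and Celf6, known mainly from the nervous system, did not pass the filter, and their highest level in any of the 50 mice was 0.38 TPM.

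Of 17 tested splicing regulators of other families, 5 were higher and 1 lower at 28 months (median 0.06), close to the 21% of all genes that were higher. Rbm20, which governs titin splicing, was higher by 0.78 ± 0.16 (FDR = 0.000134) and Ptbp2, a polypyrimidine tract-binding repressor, by 0.62 ± 0.09 (FDR = 6.23e-07). Khdrbs1, which encodes Sam68, followed with 0.28 ± 0.07 (FDR = 0.000513) and Srpk2, an SR protein kinase, with 0.25 ± 0.08 (FDR = 0.00733). Rbm38, an RNA-binding protein of muscle differentiation, was lower, at -0.48 ± 0.12 (FDR = 0.000839). With the length offset 3 were higher and 2 lower (median 0.01, with 21.1% of all genes higher and 18.1% lower), and Srpk2 stood at 0.01 ± 0.08 (FDR = 0.886).

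Of the 7 genes around myotonic dystrophy and the kinases of CELF1, 2 were higher and none lower (median 0.05), again close to the 21% over all genes. Gsk3b, a kinase upstream of CELF1, was higher by 0.73 ± 0.14 (FDR = 4.24e-05) and Stau1, a double-stranded RNA-binding protein, by 0.33 ± 0.07 (FDR = 0.000202). Prkca, another kinase gene of this list, did not pass (0.05 ± 0.09, FDR = 0.658). Dmpk, whose transcript carries the CUG repeat in myotonic dystrophy type 1, was at 0.01 ± 0.09 (FDR = 0.955), and Cnbp, the type 2 gene, at -0.10 ± 0.08 (FDR = 0.312).

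Among 34 tested genes with exons known to be under MBNL, RBFOX or CELF control, 14 were higher and 2 lower in total transcript (median 0.16), where 21% of all genes were higher and 18.7% lower. The 4 largest increases were in genes of giant or sarcomeric proteins, Ttn (1.27 ± 0.20, FDR = 2.68e-06), Neb (1.18 ± 0.28, FDR = 0.000568), Dmd (0.99 ± 0.19, FDR = 3.94e-05) and Nrap (0.94 ± 0.13, FDR = 4.29e-07). Tpm1, a tropomyosin gene, was lower, at -0.40 ± 0.12 (FDR = 0.00592), and so was Capn3, the muscle calpain, at -0.27 ± 0.07 (FDR = 0.000732). These 6 were called in the same direction with the length offset, which gave 14 higher and 3 lower of 33, beside 21.1% and 18.1% of all genes. The transcripts to which reads of Ttn and Neb were assigned averaged 1979 ± 91.6 and 2772 ± 147 bases at 8 months, so that only a part of these giant genes was counted. With the offset Ttn and Neb stood at 1.24 and 1.14, close to their values without it. Whether it classed them by the length of their full transcripts was not examined, so these 2 calls may not be free of the length trend. In the length index Dmd, encoding dystrophin, passed for 28 against 22 months (0.06 ± 0.01 log2, FDR = 0.00968), with means of 5122 ± 82.7 bases (n = 8) and 5328 ± 55.4 bases (n = 9). For 28 against 8 months it just missed (0.04 ± 0.01, FDR = 0.0104), and no gene of this list passed. Clcn1, the chloride channel whose missplicing causes myotonia, was at 3267 ± 22.0 bases at 8 months and 3252 ± 26.3 at 28 months.

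Markers of denervated fibres moved with age in the same direction as the 4 called members. All 8 tested were higher at 28 months (median 1.31), where 21% of all genes were higher and 18.7% lower, and their summed level went from 62.2 to 95.4 TPM at 8 months to 121 to 637 TPM at 28 months. Of macrophage markers 5 of 7 were higher, with sums of 135 to 228 and 205 to 624 TPM, whereas 4 of 6 fibroblast markers were lower, with sums of 712 to 1010 and 580 to 803 TPM. These fibroblast sums are mostly Dcn (means 670 and 616 TPM), which did not pass (-0.20 ± 0.09, FDR = 0.0467). None of the 7 slow-fibre markers passed the threshold in edgeR (median 0.55, sums 455 to 2720 and 897 to 4210 TPM). Satellite cell markers had 1 higher, Des, which fibres also express, and 2 lower of 5, with sums of 2310 to 2740 and 3010 to 3930 TPM that are mostly Des. Endothelial markers had 1 higher and 1 lower of 6 (sums 92.9 to 185 and 140 to 211 TPM), Schwann cell markers 1 lower of 6 (40.9 to 231 and 56.4 to 186 TPM), and of 8 lymphocyte markers only 1 could be tested (sums 2.48 to 3.6 and 3.69 to 17 TPM). This was Ptprc, a gene of leukocytes in general, macrophages included, which was higher (1.22 ± 0.29, FDR = 0.000474) and reached 14.5 TPM. Of the untested markers Cd2 averaged 0.672 TPM at 8 months and 0.51 TPM at 28 months, and Cd3g 0.138 and 0.0822 TPM. Neither of 2 tested markers of regenerating fibres passed in edgeR (71.1 to 156 and 113 to 184 TPM). Among the defining markers, Cd3e had no count in 16 of the 50 mice, Chrng, the fetal acetylcholine receptor subunit, in 11, Cd3g in 10, Mymx in 6 and Mymk, which drives myoblast fusion, in 5. The part of these cell types and of denervation in the members' changes was not tested.

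Over the 50 mice the pattern of Celf2 was close to that of Rbfox1. Their log2 CPM had a Pearson r of 0.91, and of 0.84 when each mouse was taken as its deviation from the mean of its age. Rbfox1 was the second most similar of 12585 other genes to Celf2. The genes most similar to Rbfox1 were March6, a ubiquitin ligase of the endoplasmic reticulum (r = 0.93), Gphn (gephyrin, r = 0.93) and Rora, a nuclear receptor (r = 0.93). March6 also led for Celf2 (r = 0.93), followed by Rbfox1 and Ccdc47 (r = 0.90).

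Mbnl1 was most like Dek, Mtdh and Sec62 (r = 0.87, 0.86 and 0.86), and Mbnl2 most like Dusp16, Nr3c1, the glucocorticoid receptor, and Mapre2 (r = 0.86, 0.85 and 0.85). Rbfox2 and Celf1 stood apart from the others and closer to each other (r = 0.56, within ages 0.53). Rbfox2 was most like Pitpnm2, Nes and Slc6a6 (r = 0.78, 0.77 and 0.77), and its r with its paralog Rbfox1 was 0.10, and -0.21 within ages. Celf1 was most like Ptpn21, Zdhhc21 and Nin (r = 0.79, 0.78 and 0.75). These correlations describe 50 mice whose libraries also differ along the length trend, and carry no test.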

How the data were processed

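The deposited tables hold estimated counts and TPM per gene for 50 gastrocnemius libraries (stranded, poly(A)-selected). According to the submitters' processing notes the authors used Cutadapt 1.9.1 and kallisto 0.43.1 on GRCm38; the study's methods name protein-coding Ensembl transcripts, with reads that match several transcripts shared among them. The deposited estimated counts, summed per gene, are whole numbers, and the authors summed TPM values over the transcripts of a gene. The design had foreseen plain counts; estimated counts take the same test.

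The 12586 genes that reached 1 CPM in 8 or more mice entered edgeR 4.0.16 (R 4.3.3), with TMM scaling, 1 quasi-likelihood fit over 6 ages, 10 contrasts and FDR < 0.01. Intervals of log2 fold changes cover 95%. Ratios of paralogs were tested by exact permutation (SciPy 1.17.1). The length index was log2(counts/TPM), centred on the median gene of each mouse, for 8744 genes with a mean of at least 100 counts, tested with limma 3.58.1. Lengths in bases were calibrated on 1128 genes with 1 transcript. Similarity used Pearson's r of log2 CPM (prior count 2). Alternatives were DESeq2 1.42.0, limma on log2(TPM + 1) or log2(TPM + 0.1), upper-quartile scaling, no filter, 2 ages per fit, a replicate block, leaving out each mouse and, chosen after seeing the data, the length offset and another centring of the length index. The scripts were tested on simulated data.

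The genes named are the 7 members, the 3 genes most similar to each, and up to 4 largest increases and decreases past FDR < 0.01 from each list of pathway genes. Named after their values were seen were Hnrnph1, Hnrnpc, Dmpk, Cnbp, Prkca, Clcn1, Des, Dcn, Ptprc, Cd2, the markers with no count in some mice and the silent family members. Values of some list genes are not reported here. The members and lists were chosen with earlier results of these data known. Exons and loci come from the GENCODE annotation of GRCm38. Proteins were not used here.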

Additional observations from a re-analysis of the deposited data

Results flagged for a closer look

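Of 66 sets of mice examined (a gene's TPM or mean transcript length at 1 age), 5 held a mouse whose gap to its nearest neighbour was large against the range of its age by Dixon's criterion. Chance gives about 1 in 20, so this number is near what chance gives.

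At 28 months replicate 1 had 137 TPM of Mbnl2, with the next mouse at 104, and replicate 2 had 59.5 TPM of Celf1, with the next at 43.3. Without replicate 1 the change of Mbnl2 against 8 months fell short of the threshold (0.28, FDR = 0.0213).

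In mean transcript length, Rbfox2 stood at 5626 bases in replicate 3 of 8 months, Mbnl1 at 4083 bases in replicate 2 of 18 months and Celf1 at 5589 bases in replicate 9 of 26 months.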

How the results depend on the processing

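Rbfox1 and Celf2 stayed past FDR < 0.01 for 28 against 8 months under every alternative run. Of the members' log2 fold changes those listed here changed direction, none of them past FDR < 0.01 in the main fit. With the length offset Rbfox2 stood at -0.026 for 26 against 8 months and -0.061 for 28 against 22, Celf1 at -0.129 (28 against 8), -0.07 (24 against 22) and -0.209 (28 against 22), and Mbnl2 at -0.024 (28 against 26). With upper-quartile scaling Celf1 stood at -0.005 (24 against 22) and -0.045 (28 against 22) and Mbnl2 at -0.005 (28 against 26). With limma Celf1 was at 0.034 (TPM + 1) and 0.035 (TPM + 0.1) for 26 against 8 months. Leaving out a mouse gave -0.025 to 0.052 for Celf1, 28 against 22 months. The Mbnl2/Mbnl1 difference was 0.018 on CPM, and leaving out a mouse gave -0.082 to 0.036 (28 against 8) and -0.025 to 0.058 (28 against 22). That of Mbnl3/Mbnl2 ran from -0.02 to 0.507 (28 against 22), and the Mbnl1 length index from -0.003 to 0.011 (28 against 22). The causes were not tested, except that the offset removes shifts shared by genes of like length.

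The number of members called for 28 against 8 and for 28 against 22 months, 4 in both, became 2 and 2 with the length offset, and 2 and 2 with only 2 ages in the fit, which has fewer mice. With upper-quartile scaling it was 3 and 3. Leaving out a mouse gave 3 to 5 and 2 to 4. Upper-quartile scaling also put the share of called genes that were higher at 44.9% for 28 against 8 months (main 52.9%) and at 43.4% for 28 against 22 (main 58.3%).

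Counts over all genes changed by over 1.5 times chiefly where few were called. For 18 against 8 months (9) they were 4 with either limma fit and with 2 ages, and 5 with the offset. For 22 against 8 (5) they were 34 with DESeq2, 12 with limma (TPM + 0.1), 24 with 2 ages and 14 with upper-quartile scaling. For 24 against 8 (77) they were 190 with DESeq2 and 159 with 2 ages. For 22 against 18 (1) they were 2 with DESeq2 and 0 with the offset. For 26 against 24 (0) they were 14 with DESeq2, 1 without the filter and 4 with 2 ages. For 28 against 26 (0) they were 1 with limma (TPM + 1) and 1 without the filter. For 28 against 22 (3485) 2 ages gave 1883. In the length index 28 against 22 (3) gave 20 with centring on genes of 1 transcript, 9 at a mean of 500 counts and 30 with 2 ages, and 1 to 14 without a mouse, while 28 against 8 (125) gave 190, at 500 counts, 1 with 2 ages, and 41 to 252 without a mouse.

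The mice share only replicate numbers between ages, so the replicate block is a check only. Same-numbered mice deviated together (r above 0.1) in 47 of 121 pairs, with a mean r of 0.034. Mice of other numbers did so in 227 of 920 pairs, with a mean r of -0.004. With the replicate block 5 members were called for 28 against 8 months, Rbfox2 being added (0.323, FDR = 0.00806), and 4 for 28 against 22. Genes called became 122 for 24 against 8 months and 2 for 22 against 18, and 10 in the length index for 28 against 22. The 3 most similar genes changed for 4 of 6 members with log2(TPM + 1).

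Nothing in the labels gives RNA quality, batch or extraction date, so that the length trend between libraries and age cannot be told apart. Replicates are separate mice. Gene-level estimated counts give no exon inclusion, and Mbnl3, at 1 to 15 counts per mouse, did not enter the edgeR fit.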
